A study of Caenorhabditis elegans with 6 samples.

Results

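The 9 genes described here make, limit or read out dafachronic acid, the steroid hormone that steers *C. elegans* larvae away from the arrested dauer stage, and they are 9 of 46904 genes in the deposited counts. They were taken by gene name: *ncr-1*, *ncr-2*, *daf-36*, *dhs-16*, *daf-9*, *hsd-1*, *strm-1*, *daf-12* and *din-1*. All 9 were found, and all are among the 20191 protein-coding genes. Control larvae carried *daf-7(e1372)*, a temperature-sensitive allele that makes larvae enter dauer at high temperature. *daf-16(0)* larvae carried the same *daf-7* allele together with *daf-16(mgDf50)*, a deletion of most of the coding sequence of *daf-16*, the FOXO transcription factor of the worm. The control strain was CB1372, and the *daf-16(0)* strain is VT2317 in the growth protocol and in the methods of the study but VT2127 in the strain field of the labels. Whole larvae of both genotypes were grown for 52 h at 24°C, picked by hand as dauers, since part of the *daf-16(0)* population does not arrest, and pooled for RNA, with 3 mRNA-seq libraries deposited per genotype, although the labels speak of 2 biological replicates per strain.

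Worms cannot make sterols and take up cholesterol from food. The NCR proteins move it inside cells, DAF-36 and DHS-16 modify its rings, and the cytochrome P450 DAF-9 oxidises the side chain to give dafachronic acid. Dafachronic acid binds the nuclear receptor DAF-12 and favours reproductive growth, whereas DAF-12 without hormone acts with its corepressor DIN-1 to promote dauer. In larvae DAF-9 is known from the paired XXX cells of the head and from the hypodermis.

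The labels tie the study's own comparison to 4 of these libraries, control replicates 1 and 2 and *daf-16(0)* replicates 2 and 3. Results over these 4 come first, with those over all 6 beside them. Protein-coding genes held between 8103772 and 17808548 expected counts per library. Levels are normalized CPM, counts scaled to library size by TMM factors, and 3 counts, taken as the floor, equal 0.154 to 0.426 CPM. Floors cover counting error only. *daf-16* itself had 40.3, 63.5 and 43.0 CPM in *daf-16(0)* replicates 1 to 3 and 400, 355 and 198 in control replicates 1 to 3, so the genotype labels held in every library. Both libraries outside the comparison of the study stood apart. The 3 dauer cuticle genes *col-2*, *col-40* and *cut-1* summed to 19.2 CPM in *daf-16(0)* replicate 1, against 1175 and 1795 in the other *daf-16(0)* libraries and 11056 to 42731 in control. The 6 yolk genes, which mark adult intestine, summed to 18356 CPM in control replicate 3, against 322 and 124 in the other controls and 13848 to 25621 in *daf-16(0)*. Markers of later stages were higher in *daf-16(0)*, as 417 to 1451 CPM against 5.81 to 47.0 for 4 adult or L4 cuticle genes and 133 to 699 against 5.24 to 25.5 for 31 sperm genes, whereas 6 oocyte genes overlapped, at 159 to 1344 and 54.8 to 919.8.

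Of the 9 genes, *daf-36* was upregulated and *daf-12* downregulated in *daf-16(0)*, in the 4 libraries and in all 6. Genes were called where the quasi-likelihood test of edgeR, after Benjamini-Hochberg adjustment over all tested genes, gave a p of at most 0.05. *daf-9* and *din-1* did not reach that threshold, and *hsd-1* was too low to test. Thus 1 of the 8 tested genes was called higher and 1 lower. Over all 13536 genes tested in the 4 libraries, 5.37% were called higher and 9.59% lower, and over the 13633 tested in all 6 libraries the shares were 5.08% and 7.39%. Asking also for a log2 fold change of at least 1 left the shares of the 4 libraries as they were, gave 5.06% and 7.39% in the 6, and kept both calls. With 8 genes, 1 call in each direction is the smallest count above 0, and nothing is read from it about the pathway as a whole. The median log2 fold change of the 8 genes was 0.27 in the 4 libraries and 0.90 in all 6, beside 0.11 and 0.09 over all tested genes. In all 6, that median is the midpoint of a gap between *ncr-1* (-0.13) and *daf-36* (1.94). It is therefore not read as a shift of the genes as a set. Over all 6 libraries, *daf-16(0)* lay wholly above control for *daf-36*, *daf-9* and *strm-1*, an order found in 21.3% of tested genes, and wholly below it for *daf-12*, found in 19.6%. In the 4 libraries *din-1* joined *daf-12* below, and the shares of all tested genes were 36.7% above and 33.2% below.

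**Figure D1:**
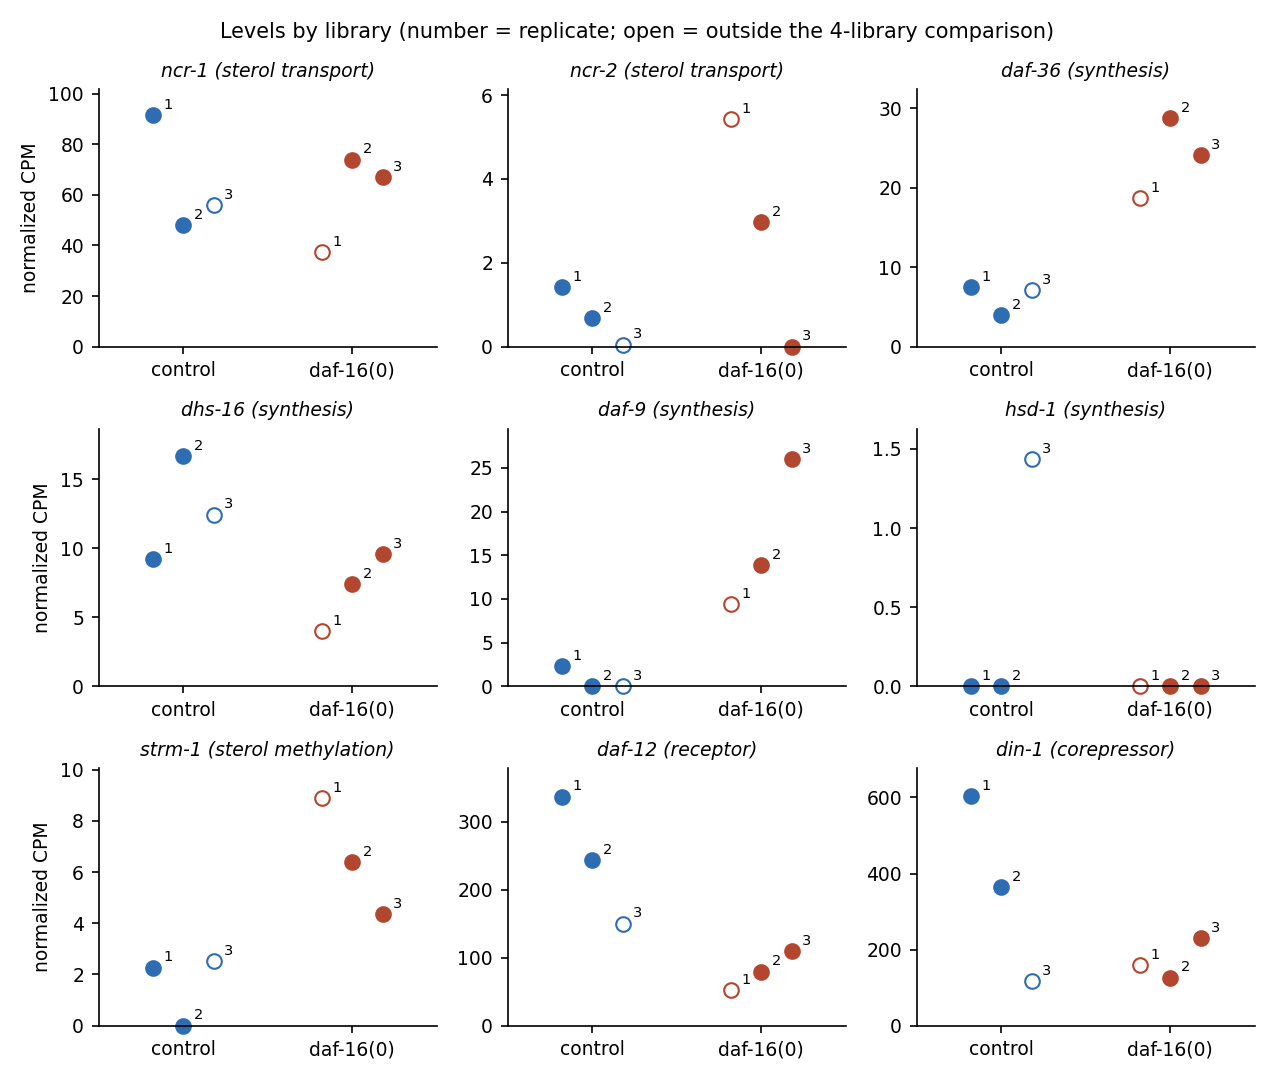
Normalized CPM of each of the 9 genes (y axis, linear from 0) in the 3 control and 3 *daf-16(0)* libraries (x axis). Numbers beside points are replicates and open points are the libraries outside the comparison of the study. *daf-36*, *daf-9* and *strm-1* sit higher in *daf-16(0)*, *daf-12* sits lower, and *hsd-1* has counts in control replicate 3 alone.

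*ncr-1* (WBGene00003561, chromosome X of WBcel235, 4472244 to 4488851, reverse strand) and *ncr-2* (WBGene00003562, chromosome III, 8258345 to 8265805, forward strand) encode the worm relatives of the human Niemann-Pick C1 sterol transporter. *ncr-1* had 37.3, 73.9 and 67.0 CPM in *daf-16(0)* replicates 1 to 3 and 91.5, 48.1 and 55.9 in control replicates 1 to 3. The genotypes overlapped, with the highest and the lowest libraries on opposite sides. In the 4 libraries its log2 fold change was 0.04, with a standard error (SE) of 0.37 (95% interval -0.86 to 0.93, edgeR adjusted p = 0.951). Over all 6 it was -0.13 (95% interval -1.01 to 0.74).

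*ncr-2* was far rarer and more variable. It had 83, 27 and 0 expected counts in *daf-16(0)* replicates 1 to 3, or 5.42, 2.97 and 0 CPM. In control replicates 1 to 3 it had 10, 6 and 1 counts, or 1.42, 0.68 and 0.05 CPM. The *daf-16(0)* libraries therefore held both the highest value and the lowest. Its log2 fold change was 0.51 in the 4 libraries with a 95% interval of -4.26 to 5.27 (edgeR adjusted p = 0.874), so its direction was not determined within the spread between libraries. Without *daf-16(0)* replicate 2 it was -6.32 (edgeR adjusted p = 0.497). The collagen gene *col-91* lies within *ncr-2* on the opposite strand with 0 shared exon bases, and it had 473, 811 and 941 counts in *daf-16(0)* and 21, 37 and 0 in control.

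*daf-36* (WBGene00007536, chromosome V of WBcel235, 10223513 to 10225760, reverse strand) encodes a Rieske-like oxygenase that catalyses the first step of dafachronic acid synthesis, the conversion of cholesterol to 7-dehydrocholesterol. It had 18.7, 28.8 and 24.1 CPM in *daf-16(0)* replicates 1 to 3 and 7.52, 3.99 and 7.08 in control replicates 1 to 3. Every *daf-16(0)* library was above every control, and the lowest *daf-16(0)* library was the one outside the comparison of the study. The means were 26.5 ± 3.31 against 5.76 ± 2.50 (SD, n = 2 each), and 23.9 ± 5.07 against 6.20 ± 1.93 over all libraries (SD, n = 3 each). *daf-36* had a log2 fold change of 2.23 (SE 0.49, 95% interval 1.04 to 3.41, edgeR adjusted p = 0.0332), a 4.68-fold increase. Over all 6 libraries it was 1.94 (SE 0.45, edgeR adjusted p = 0.0326).

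The sign of *daf-36* was positive in every fit, but its call was lost when certain libraries were left out. Of the 4 libraries, the edgeR adjusted p was 0.114 without *daf-16(0)* replicate 2, 0.0764 without *daf-16(0)* replicate 3 and 0.0644 when control replicate 2 was omitted, with log2 fold changes of 2.12, 2.37 and 1.83, while it was 0.0105 without control replicate 1. Of the 6 libraries, it was 0.0275 without control replicate 3 and between 0.0634 and 0.138 without any 1 of the others.

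*dhs-16* (WBGene00000979, chromosome V, 5983745 to 5985473, forward strand) encodes a short-chain dehydrogenase that acts on the 3-hydroxyl group of the sterol ring, a step between DAF-36 and DAF-9. Its levels were 3.98, 7.36 and 9.54 CPM in *daf-16(0)* replicates 1 to 3 and 9.23, 16.6 and 12.4 in control replicates 1 to 3, with an overlap between *daf-16(0)* replicate 3 and control replicate 1. In the 4 libraries its log2 fold change was -0.60 (SE 0.56, 95% interval -1.95 to 0.75, edgeR adjusted p = 0.467) and over all 6 libraries -0.87 (95% interval -2.12 to 0.37). *dhs-16* shares 74 bases of exon with *C10F3.7* on the opposite strand, and the library kit named in the labels does not mark strand. *C10F3.7* had 2.41, 1.54 and 5.04 CPM in *daf-16(0)* replicates 1 to 3 and 174, 252 and 124 in control replicates 1 to 3, and its part in the *dhs-16* counts was not tested.

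*daf-9* (WBGene00000905, chromosome X of WBcel235, 6196927 to 6200818, forward strand) encodes the cytochrome P450 of the last synthesis step. It showed the widest gap between genotypes among the 9 genes, from nearly no counts in control to a low but clear level in *daf-16(0)*. Expected counts were 144, 126 and 341 in *daf-16(0)* replicates 1 to 3, and 16, 0 and 0 in control replicates 1 to 3. These equal 9.40, 13.8 and 26.0 CPM in *daf-16(0)*, and 2.27, 0 and 0 CPM in control. A count of 0 allows up to 0.342 CPM in control replicate 2 and 0.154 CPM in control replicate 3.

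The log2 fold change of *daf-9* was 4.20 in the 4 libraries (SE 1.33, 95% interval 0.99 to 7.42, unadjusted p = 0.0183, edgeR adjusted p = 0.0787) and 4.56 in all 6 (SE 1.61, edgeR adjusted p = 0.101). It missed the threshold in both. On the same 4 libraries the p after adjustment was 0.00393 with DESeq2, 0.0149 with limma and 0.00162 with edgeR run unfiltered. All the control counts came from control replicate 1, in which rRNA genes held 8.64% of counts against 0.0599 to 1.44% in the other libraries, and the part of that difference in the *daf-9* result was not tested. Without that library the 2 *daf-16(0)* libraries of the comparison averaged at least 58.3-fold over the floor of control replicate 2. All 3 *daf-16(0)* libraries averaged at least 48.03-fold over that floor. Control replicate 2 was then the only control left in the comparison and had no counts, so a wider gap was bound to follow. Leaving out control replicate 2 instead gave a log2 fold change of 3.15 (edgeR adjusted p = 0.0298). The edgeR adjusted p was 0.105 without *daf-16(0)* replicate 2 and 0.206 without *daf-16(0)* replicate 3. Of the 6 libraries, leaving out control replicate 1, after which no control had counts, gave an edgeR adjusted p of 0.0186. Leaving out any 1 of the others gave 0.0713 to 0.241.

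*hsd-1* (WBGene00012394, chromosome I, 13720125 to 13724453, reverse strand) encodes a 3-beta-hydroxysteroid dehydrogenase homologue expressed in the XXX cells. It had 28 expected counts in control replicate 3, or 1.44 CPM, and 0 in the other 5 libraries, where 0 counts allow up to 0.196 to 0.426 CPM. It was left untested by the filter on low counts. Control replicates 1 and 2 had 0 counts, as did every *daf-16(0)* library, so the genotypes overlapped and no difference between them was determined. *eak-3*, *eak-4*, *eak-6* and *sdf-9*, further genes of the XXX cells, were as rare. Together they summed to 0, 0 and 0.839 CPM in *daf-16(0)* replicates 1 to 3 and 2.13, 1.03 and 1.39 in control replicates 1 to 3. The XXX cell markers were thus low in both genotypes, with every control sum above every *daf-16(0)* sum. That order rested on *eak-6*, the only marker with counts in control replicates 2 and 3. *eak-3*, *eak-4* and *sdf-9* had 2, 3 and 7 counts in control replicate 1 and 1, 5 and 4 in *daf-16(0)* replicate 3. They had 0 in the other libraries. *eak-6* had 3, 9 and 27 counts in control replicates 1 to 3 and 0, 0 and 1 in *daf-16(0)* replicates 1 to 3. None of these further genes was abundant enough to test. In bulk RNA of whole larvae, fewer cells of a type and less RNA per cell cannot be told apart.

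*strm-1* (WBGene00019198, chromosome III, 2402070 to 2406332, forward strand) encodes a sterol methyltransferase that makes 4-methylsterols, which are not precursors of dafachronic acid, and it is known to promote dauer. It had 8.88, 6.38 and 4.35 CPM in *daf-16(0)* replicates 1 to 3 and 2.27, 0 and 2.51 in control replicates 1 to 3. The genotypes did not overlap, from 16, 0 and 49 expected counts in the controls. The log2 fold change of 2.29 (SE 1.59, 95% interval -1.57 to 6.14, edgeR adjusted p = 0.335) was within the error, as was that over all 6 libraries, 2.02 (95% interval -0.95 to 4.99). Without control replicate 1 the edgeR adjusted p was 0.0253, where the only control left in the comparison had no counts, and without control replicate 2 the log2 fold change was 1.25 (edgeR adjusted p = 0.525). *strm-1* shares 26 bases of exon with *mrpl-30* on the opposite strand, which had 21.5, 28.7 and 19.9 CPM in *daf-16(0)* and 16.3, 8.66 and 4.00 in control, and its part in the *strm-1* counts was not tested.

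*daf-12* (WBGene00000908, chromosome X of WBcel235, 10644409 to 10666874, forward strand) encodes the receptor, a relative of the vertebrate vitamin D and liver X receptors. It had the highest mean per length of the 9 genes in control, where its library range overlapped that of *din-1*. It was lower in every *daf-16(0)* library than in any control. Its levels were 52.5, 79.3 and 110 CPM in *daf-16(0)* replicates 1 to 3 and 336, 243 and 150 in control replicates 1 to 3. The nearest libraries were *daf-16(0)* replicate 3 and control replicate 3. The means were 94.6 ± 21.8 against 290 ± 66.1 (SD, n = 2 each), and 80.6 ± 28.8 against 243 ± 93.2 over all libraries (SD, n = 3 each).

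The log2 fold change of *daf-12* was -1.59 in the 4 libraries (SE 0.34, 95% interval -2.41 to -0.77, edgeR adjusted p = 0.0302), a 3.01-fold decrease, and also -1.59 over all 6 (SE 0.41, edgeR adjusted p = 0.044). Of the 4 libraries, the edgeR adjusted p was 0.188 without *daf-16(0)* replicate 2 and 0.0793 without *daf-16(0)* replicate 3, with log2 fold changes of -1.35 and -1.82. Of the 6, it was 0.0166 without control replicate 3 and between 0.0727 and 0.157 without any 1 of the others. The sign was negative in every fit. Counts were summed over its 10 annotated transcripts.

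*din-1* (WBGene00008549, chromosome II, 11614636 to 11633609, reverse strand) encodes the corepressor, a relative of human SHARP. It had 159, 126 and 230 CPM in *daf-16(0)* replicates 1 to 3 and 603, 364 and 118 in control replicates 1 to 3. In the comparison of the study both *daf-16(0)* libraries were below both controls. Control replicate 3, however, was below all 3 *daf-16(0)* libraries, and the controls spanned a wider range than the difference between genotypes.

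The log2 fold change of *din-1* was -1.42 in the 4 libraries (SE 0.43, 95% interval -2.45 to -0.38, edgeR adjusted p = 0.0716) and -1.07 in all 6 (95% interval -2.36 to 0.22, edgeR adjusted p = 0.239). On the same 4 libraries the p after adjustment was 0.00841 with DESeq2, 0.0367 with limma and 0.0129 with edgeR run unfiltered, and it was 0.0294 with edgeR without control replicate 2. It was 0.339 without *daf-16(0)* replicate 2, at a log2 fold change of -1.02, and 0.0928 without *daf-16(0)* replicate 3 and 0.108 with control replicate 1 omitted. Of the 6 libraries, it was 0.0322 without control replicate 3, at a log2 fold change of -1.47, and 0.618 without control replicate 1, at -0.48. The 7 annotated transcripts of *din-1* include long and short forms, of which the short form is known to act with DAF-12, and these counts do not separate them.

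**Figure D2:**
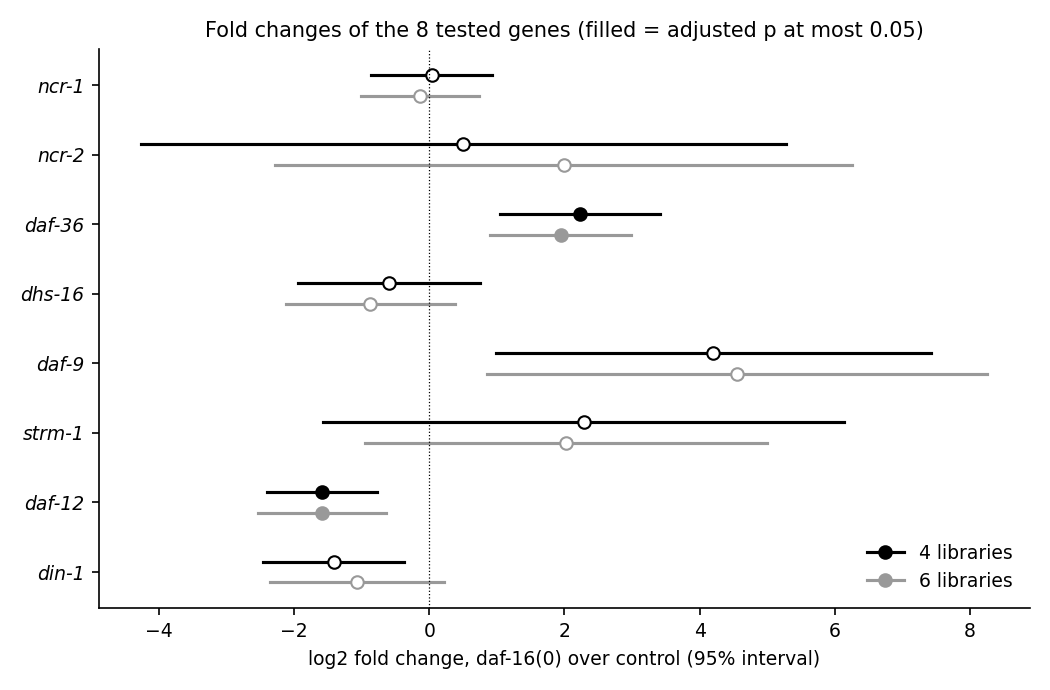
Log2 fold change of *daf-16(0)* over control (x axis) for the 8 tested genes (y axis), with the point as the edgeR estimate and the line as its 95% interval. Black is the comparison of 4 libraries and grey that of all 6. Filled points have an adjusted p of 0.05 or less, which *daf-36* and *daf-12* alone reached.

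Because CPM favours long genes, the 9 were ranked per kilobase of annotated exon. Each length joined the exons of all annotated transcripts, giving 4442 bases for *daf-12* and 9785 for *din-1*. Which transcripts were present was not tested, and the order depends on these lengths. In control the means fell from *daf-12* (54.7 ± 21.0 CPM per kb) through *din-1* (37.0 ± 24.8), *ncr-1* (13.6 ± 4.84), *dhs-16* (9.52 ± 2.77) and *daf-36* (4.49 ± 1.39) to *strm-1* (1.43 ± 1.25), each as SD with n = 3. *daf-9* (0.37 CPM per kb), *hsd-1* (0.34) and *ncr-2* (0.18) came last. The library ranges of neighbours in this order overlapped except between *dhs-16* and *daf-36* and between *daf-36* and *strm-1*.

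In *daf-16(0)* the transcripts of the receptor, its corepressor and the first enzyme had overlapping levels. *daf-12* had 18.1 ± 6.48, *din-1* 17.6 ± 5.43 and *daf-36* 17.3 ± 3.67 CPM per kb (SD, n = 3), followed by *ncr-1* (12.4 ± 4.06), *daf-9* (7.96 ± 4.17), *strm-1* (5.87 ± 2.04) and *dhs-16* (5.19 ± 2.09). Neighbours down to *dhs-16* overlapped, and *dhs-16* lay wholly above *ncr-2* (0.71 ± 0.69). *hsd-1* was at 0.

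**Figure D3:**
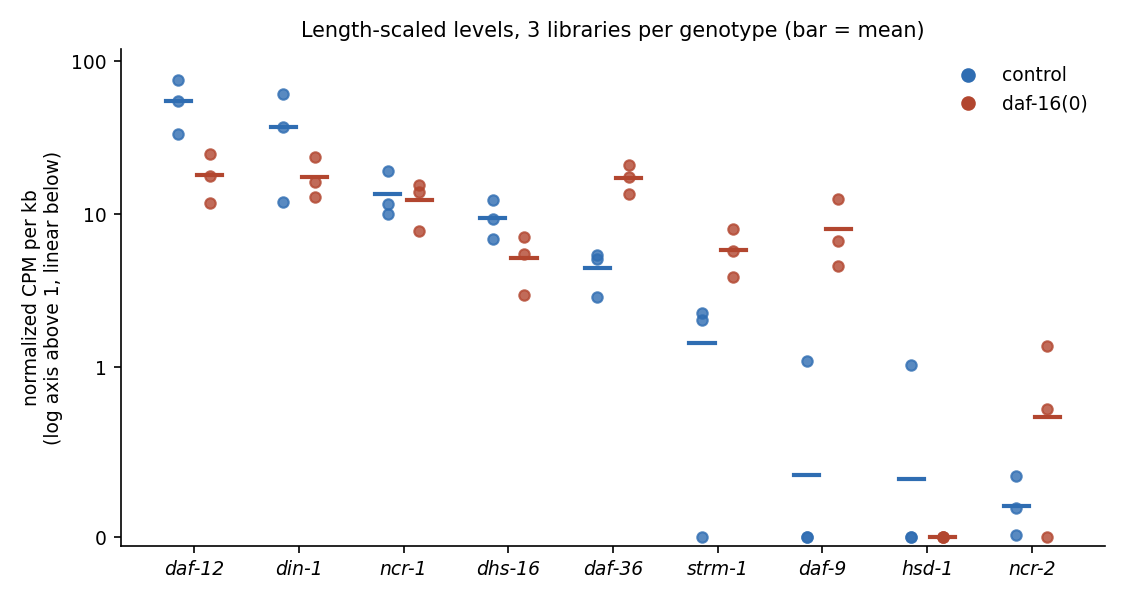
Normalized CPM per kilobase of exon (y axis, logarithmic above 1 and linear below) for the 9 genes in order of their control mean (x axis). Points are the 3 libraries of each genotype and bars are means. *daf-36* and *daf-9* move from the lower part of the control order to 17.3 and 7.96 CPM per kb in *daf-16(0)*, while *daf-12* moves from 54.7 to 18.1.

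Ratios within a library do not depend on how libraries were scaled. Per length, *daf-36* over *daf-12* was 1.14, 1.17 and 0.705 in *daf-16(0)* replicates 1 to 3 and 0.0719, 0.0528 and 0.152 in control replicates 1 to 3. Per length, the *daf-36* transcript was therefore about as abundant as the *daf-12* transcript in *daf-16(0)* and a small fraction of it in control. The length of *daf-12* came from an annotation in which the gene starts at 10635908, against 10644409 in the counts. The ratios to *daf-12* depend on that length, but their differences between genotypes do not. Between enzymes of the pathway, *daf-36* over *dhs-16* was 4.55, 3.80 and 2.45 in *daf-16(0)* and 0.792, 0.233 and 0.554 in control. Against *ncr-1*, whose own level overlapped between genotypes, *daf-36* stood at 1.73, 1.35 and 1.25 in *daf-16(0)* and 0.285, 0.287 and 0.439 in control. *din-1* over *daf-12* overlapped between genotypes, at 1.38, 0.723 and 0.949 in *daf-16(0)* and 0.814, 0.681 and 0.358 in control. These ratios are given without a test.

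Genes related to the pathway by role were counted from fixed lists. The nuclear receptors closest to DAF-12 are *nhr-8*, known to act in cholesterol balance and to promote *daf-36* expression, and *nhr-48*. *nhr-8* had 33.4, 50.5 and 58.1 CPM in *daf-16(0)* replicates 1 to 3 and 17.2, 5.93 and 11.8 in control replicates 1 to 3, so it was higher in every *daf-16(0)* library. Its log2 fold change was 2.27 in the 4 libraries (SE 0.53, edgeR adjusted p = 0.0383) and 2.03 in all 6 (SE 0.46, edgeR adjusted p = 0.03). Its edgeR adjusted p was 0.0769 without *daf-16(0)* replicate 2 and 0.0912 without *daf-16(0)* replicate 3 of the 4 libraries. Of the 6, it was 0.108 without *daf-16(0)* replicate 2, 0.0978 without *daf-16(0)* replicate 3 and 0.069 when control replicate 2 was omitted. *nhr-48* had 29.1, 17.6 and 43.7 CPM in *daf-16(0)* and 90.7, 61.0 and 32.7 in control, a log2 fold change of -1.28 (edgeR adjusted p = 0.116), with control replicate 3 inside the *daf-16(0)* range. Thus 1 of these 2 receptors was called higher and the other was not called, its unadjusted edgeR p being 0.0368. Over all tested genes, 5.37% were called higher and 9.59% lower in the 4 libraries, and 5.08% and 7.39% in the 6. With 2 genes, nothing is read from this count.

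Of 11 further sterol and steroid genes, 7 were tested, with 0 called higher and 1 lower by edgeR in the 4 libraries (3 higher at an unadjusted p of 0.05 or less, and 2 called by DESeq2) and 2 higher and 1 lower in all 6. Over all tested genes these shares were 5.37% and 9.59% in the 4 libraries and 5.08% and 7.39% in the 6. Their median log2 fold change was 0.33 and 0.01. The gene called lower was *stdh-1*, of a family named for similarity to steroid dehydrogenases. It had 12.01, 19.1 and 16.9 CPM in *daf-16(0)* and 66.9, 76.9 and 84.4 in control, with no overlap (log2 fold change -1.98, SE 0.31, edgeR adjusted p = 0.013 in the 4 libraries, and -2.25, edgeR adjusted p = 0.00657 in all 6). In the 4 libraries its edgeR adjusted p was 0.0617 without *daf-16(0)* replicate 2 and 0.0658 without *daf-16(0)* replicate 3, and in the 6 it stayed at 0.0353 or less with any 1 library left out.

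The genes called higher in all 6 libraries were *hsd-3* and *let-767*. *hsd-3*, a relative of *hsd-1*, had 37, 38 and 43 expected counts in *daf-16(0)* replicates 1 to 3 and 0 in each control. The *daf-16(0)* mean was at least 8.76-fold over the highest floor of a control library in the 4 libraries (edgeR adjusted p = 0.051) and at least 7.73-fold in all 6 (edgeR adjusted p = 0.0399). *let-767*, an essential steroid dehydrogenase homologue that acts in fatty acid elongation, had 498, 570 and 421 CPM in *daf-16(0)* and 252, 126 and 170 in control. Its log2 fold change was 1.42 in the 4 libraries (edgeR adjusted p = 0.0694) and 1.44 in all 6 (edgeR adjusted p = 0.0381). Both calls depended on the libraries. *hsd-3* kept its call with 1 of the 6 left out only where that was control replicate 3, with an edgeR adjusted p of up to 0.154 otherwise. *let-767* kept it without control replicate 1 or 3 and reached 0.135 without *daf-16(0)* replicate 2.

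The remaining sterol genes were not called. *emb-8*, the reductase that supplies electrons to cytochromes P450, had 206, 246 and 159 CPM in *daf-16(0)* and 278, 182 and 149 in control, a log2 fold change of -0.16 (95% interval -1.05 to 0.73). *heh-1*, a relative of the sterol binding protein NPC2, had a log2 fold change of 0.33 (95% interval -0.48 to 1.15), and *nlt-1*, a lipid transfer protein homologue, one of 0.93 (95% interval 0.13 to 1.72, edgeR adjusted p = 0.0994). *lrp-1*, a megalin relative with a part in sterol uptake, had 385, 271 and 695 CPM in *daf-16(0)* and 2288, 879 and 449 in control, a log2 fold change of -1.69 (edgeR adjusted p = 0.11). As for *din-1* and *nhr-48*, control replicate 3 was the lowest control. *hsd-2* had no counts, and *stdh-2*, *stdh-3* and *stdh-4* had at most 41, 16 and 6 counts in a library. Of the 5 EAK genes, which act with the AKT-1 kinase against DAF-16, *eak-7* alone was tested, and its log2 fold change was -0.40 (95% interval -1.17 to 0.36).

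**Figure D4:**
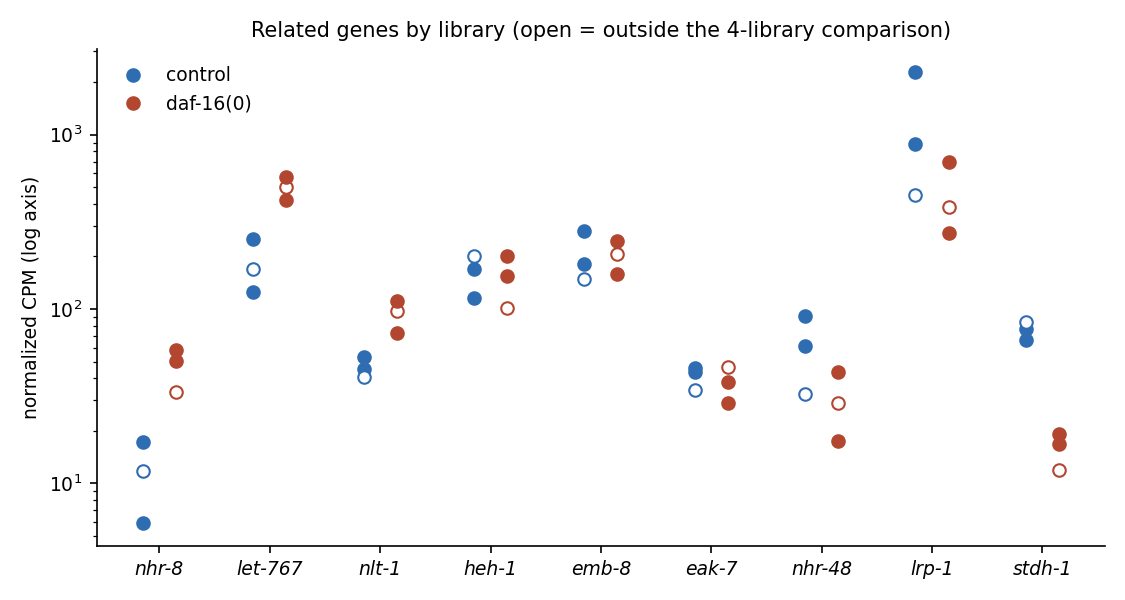
Normalized CPM (y axis, logarithmic) of 9 related genes (x axis) in the 3 libraries of each genotype, with open points for the libraries outside the comparison of the study. *nhr-8*, *let-767* and *nlt-1* are higher in every *daf-16(0)* library than in any control, *stdh-1* is lower in every one, and the other 5 overlap.

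The wider enzyme and receptor families were counted in the same way, beside the 5.37% of all tested genes called higher and 9.59% called lower in the 4 libraries and 5.08% and 7.39% in the 6. *daf-9* is a cytochrome P450, and of 63 tested genes named *cyp*, 0 were called higher by edgeR (2 at an unadjusted p of 0.05 or less) and 10 lower in the 4 libraries, with a median log2 fold change of -0.74. In all 6 libraries 1 of 62 was higher and 11 were lower, with a median of -0.65. Of 28 tested *dhs* genes, the family of *dhs-16*, 0 were called higher by edgeR (5 at an unadjusted p of 0.05 or less) and 4 lower, with a median of -0.05, and in all 6 libraries 1 was higher and 4 were lower, with a median of 0.06. Of 181 tested *nhr* genes, 4 were called higher, *nhr-8* among them, and 4 lower, with a median of 0.17. In all 6 libraries 6 of 179 were higher and 2 lower, with a median of -0.02.

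Of the tissue markers, hypodermal and neuronal sums, and the XXX cell sums given above, did not overlap between genotypes in the 6 libraries. For the XXX cell sums this rested on *eak-6*. Muscle sums did overlap, and the intestinal sums of replicate 1 of each genotype were nearly equal. *dpy-7* and *rol-6*, genes of the hypodermis, in which *daf-9* is known to be expressed, summed to 501, 460 and 322 CPM in *daf-16(0)* replicates 1 to 3 and 33.1, 7.75 and 25.5 in control replicates 1 to 3. *rol-6* is also among the adult or L4 cuticle genes. The 3 dauer cuticle genes went the other way, at 19.2 to 1795 CPM in *daf-16(0)* and 11056 to 42731 in control. The sum of *dpy-7* and *rol-6* was therefore not taken to measure the amount of hypodermis. The intestinal genes *elt-2* and *ges-1* summed to 55.8, 87.4 and 97.9 CPM in *daf-16(0)* and 55.8, 50.3 and 35.5 in control. The neuronal genes *unc-119*, *rab-3* and *snb-1* summed to 137, 133 and 162 CPM in *daf-16(0)* and 257, 340 and 266 in control. The muscle genes *myo-3* and *unc-54* summed to 2665, 3404 and 8253 CPM in *daf-16(0)* and 18076, 9746 and 3880 in control, with control replicate 3 the lowest control, as for *daf-12* and *din-1*. The part of these stage and tissue differences in the results above was not tested.

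Finally, the 13996 other protein-coding genes with at least 3 CPM in a library were ranked by the likeness of their pattern to *daf-9* and *daf-12*, as the Pearson correlation of log2(CPM + 1) over the 6 libraries. The closest to *daf-9* were *skih-2* (r = 0.999), *cdr-7* (r = 0.999) and *dod-22* (r = 0.998), and the closest to *daf-12* were *F38B7.3* (r = 0.9997), *F53B1.2* (r = 0.997) and *casy-1* (r = 0.994). These values describe 6 points in 2 genotype groups, and 276 and 347 genes had a correlation above 0.95 with *daf-9* and *daf-12*.

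**Figure D5:**
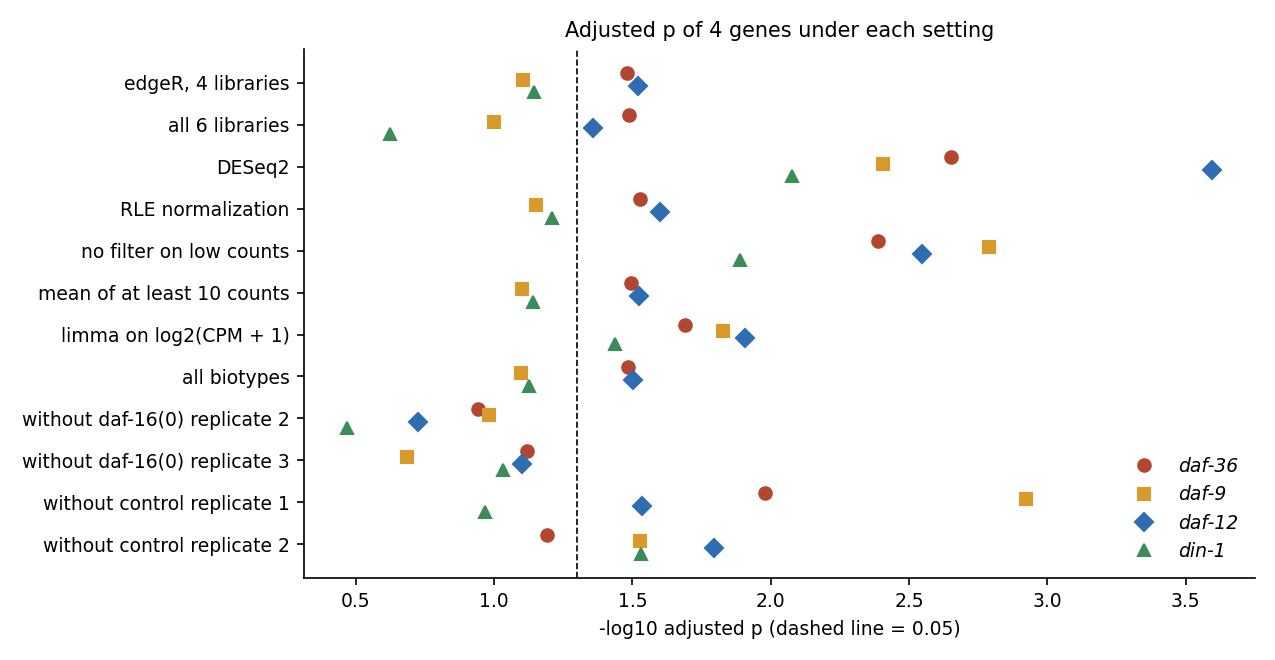
Adjusted p as -log10 (x axis, with 0.05 as the dashed line) of *daf-36*, *daf-9*, *daf-12* and *din-1* in the comparison of 4 libraries under each setting (y axis). *daf-36* and *daf-12* lie right of the line in the 8 settings that keep all 4 libraries or use all 6, and left of it without *daf-16(0)* replicate 2 or 3, as does *daf-36* without control replicate 2. *daf-9* and *din-1* cross it with DESeq2, limma, unfiltered edgeR and without control replicate 2, and *daf-9* also without control replicate 1.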

How the data were processed

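RNA was from whole hand-picked dauers, 3 libraries per genotype, sequenced as paired ends on an Illumina HiSeq. Per the labels and the methods of the study, the authors used Trimmomatic 0.39 for trimming, STAR 2.4.2a for alignment to WBcel235 and RSEM for expected counts of each gene. The deposited expected counts carry no normalization and were rounded to whole numbers here. Normalized counts, and columns with the authors' own fold changes and p-values, were not used. Protein-coding genes entered edgeR 4.0.16 under R 4.3.3 with filterByExpr, TMM factors, glmQLFit and glmQLFTest, and p-values were adjusted by Benjamini-Hochberg over every tested gene. The SE is the absolute log2 fold change divided by the square root of F. Whether counting used strand is not given in the sources used here.

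The 9 genes, the related lists, the markers and the alternatives were chosen with earlier results of these data known. Named genes are the 9, related genes that were called or have a stated role, *daf-16* as a genotype check, *daf-7*, genes overlapping the 9, and the 3 genes most like *daf-9* or *daf-12*. Both genotypes carry the same *daf-7* allele, so its level does not check the genotype. The log2 fold change of *daf-7* was -1.48 in the 4 libraries (edgeR adjusted p = 0.0493) and -1.74 in all 6 (edgeR adjusted p = 0.0893). Exon lengths are from Ensembl release 115. Alternatives were the 6 libraries, DESeq2 1.42.0, RLE factors, no filter, a filter at mean count 10, limma 3.58.1 on log2(CPM + 1), all biotypes, a replicate block, and leaving out each library. The scripts were tested on simulated data with changes planted only in genes well above the floor, at a spread below that of the fits. Genes near 0 counts were not covered by it.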

Additional observations from a re-analysis of the deposited data

How the results depend on the processing

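No alternative turned the direction of *daf-36*, *daf-9*, *strm-1*, *dhs-16*, *daf-12* or *din-1*. In the 4 libraries, where 1 of the 9 genes was called higher and 1 lower, DESeq2, limma and edgeR with no filter each called 2 higher and 2 lower, and leaving out 1 library gave 0 to 3 higher and 0 to 2 lower. In the 6 libraries DESeq2 called 2 higher, and leaving out 1 gave 0 to 1 higher and 0 to 2 lower. Over all genes of the 4 libraries, 727 were called higher and 1298 lower by edgeR, against 1626 and 2072 by DESeq2, 1626 and 1974 with no filter, 1415 higher by limma, and 271 to 1914 higher and 436 to 1639 lower with 1 library left out. Over all genes of the 6, 693 and 1008 became 1644 and 1880 by DESeq2, and 125 to 1267 and 170 to 1675 with 1 left out. Higher genes were 35.9% of calls in the 4 libraries and 53.9% without control replicate 1.

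Of the further sterol genes, 0 were higher in the 4 libraries, against 2 in all 6, by DESeq2, by limma and with no filter, 1 with RLE, and 0 to 1 with 1 library left out. The 1 lower became 2 by DESeq2 and with no filter, and 0 to 2 with 1 left out. Of the receptors close to DAF-12, 0 to 1 were higher with 1 left out, and 1 was lower with no filter. The log2 fold change of *ncr-1* in the 4 libraries, 0.04, turned to -0.13 in all 6 and to -0.0049 without *daf-16(0)* replicate 2, and ranged from -0.36 to 0.56 with 1 library left out. In the 6 it ranged from -0.32 to 0.20, positive without *daf-16(0)* replicate 1 (0.13) or control replicate 1. That of *ncr-2* in the 4 was -0.0030 by limma and -6.32 to 1.54 with 1 left out. The causes were not tested. Where leaving out a library left 1 in a genotype, its spread was taken as that of the other genotype.

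Same-numbered replicates did not deviate together, with correlations of -0.12, -0.0063 and -0.31, so the numbers were not taken to pair the samples. With a replicate block in the 6 libraries, 0 of the 9 genes were called higher and 0 lower, and 162 and 222 of all genes. The adjusted p under the block was 0.12 for *daf-36* and 0.153 for *daf-12*. The 4 libraries share only 1 replicate number between genotypes, so no block could be fitted to them. *ncr-2*, *hsd-1*, *strm-1* and *daf-9* had 0 counts in at least 1 library, where depth sets the level that a count of 0 allows, and these libraries were not only the shallow ones.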
